A study of Mus musculus and Homo sapiens with 4 samples.

Results

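MALAT1 and NEAT1 are long noncoding RNAs found mainly in the nucleus. Their footprint counts were followed through capture of tagged ribosomes in a human line and across a pair of elongation inhibitors in mouse cells. Members were the rows of 5 transcript identifiers: 2 of human MALAT1 (ENST00000534336 and ENST00000508832), 2 of human NEAT1 (ENST00000501122 and ENST00000499732) and 1 of mouse Malat1 (ENSMUST00000172812). All 5 were found, with their symbols as given by this selection, among 288251 transcripts listed for both species (194871 human and 93380 mouse).

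Ribosome profiling sequences the short RNA pieces that a ribosome shields from nuclease, here RNase I. The human pair came from HEK cells, an embryonic kidney line, grown in DMEM with 10% FBS: the bound library held assembled ribosomes captured on streptavidin by an affinity tag on the large subunit, and the input library had size exclusion chromatography without that capture. The mouse pair came from E14 embryonic stem cells of 129/Ola background, grown without feeders and with LIF, a cytokine that keeps them undifferentiated. One library was from cells given emetine for 60 s, at a concentration that the labels do not state, and the other from cells given cycloheximide at 100 µg/ml for 60 s. Each condition had 1 library, so no difference has a replicate check and no p-value was computed. The identifiers could not be paired with gene symbols, so neither cell line was checked against marker genes.

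MALAT1 concentrates in nuclear speckles, bodies rich in splicing factors, and NEAT1 is the RNA scaffold of paraspeckles, another kind of nuclear body. Both are classed as noncoding, and mature cytoplasmic ribosomes work outside the nucleus. Footprint libraries can also hold RNA pieces that other proteins or structures protected from the nuclease. Emetine and cycloheximide both stop elongating ribosomes, emetine from the small subunit and cycloheximide from the large one.

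In mouse the gene lies on the minus strand at chr19:5795690-5802672 (GRCm38.p6, the assembly of mm10), spans 6983 bases and is annotated by RefSeq as lncRNA. The counts cover the whole transcript and do not show where along it the footprints lay. The first 50 bases at its RefSeq start, chr19:5802623-5802672 on the minus strand, are shown to identify the gene, and any ATG would be in capitals. The tables used here do not give the start of ENSMUST00000172812, so this need not be the first stretch of the transcript that was counted.
Malat1 RefSeq 5′ end: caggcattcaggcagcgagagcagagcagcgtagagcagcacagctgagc
This window holds 0 ATG triplets on the sense strand. Of 32851 RefSeq windows of the same 50 bases after a start, 44.3% hold at least 1.

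None of the 5 transcripts has a counted coding region, 5′ leader or 3′ trailer, so all their values are whole-transcript counts. Their reads were set against transcripts for which no coding region is counted, a class of noncoding RNAs and of isoforms that lack a coding region although their gene has one. Counts summed over transcripts were 30208713 in the bound library, 17446956 in the input, 188700177 with emetine and 342552347 with cycloheximide. Isoforms repeat reads, so these sums overstate the reads sequenced, and how deep each library truly is cannot be told. Each pair was put on a scale where coding regions with at least 100 reads in its libraries together have a median log2 ratio of 0, which took the bound library as 1.99 times as deep as the input and the emetine library as 0.569 times as deep as cycloheximide. Folds are from counts, with exact Clopper-Pearson 95% intervals for counting error only. Log2 ratios carry a prior of 0.5 scaled reads.

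MALAT1 reads were much lower in the captured ribosomes than in the input. The MALAT1 transcript with more reads, ENST00000534336, had 1536 reads in the bound library against 5696 reads in the input. A transcript with its input count and the median coding-region ratio would have had 11325 bound reads. Relative to coding regions it was 7.37-fold lower in the bound library (interval 6.97 to 7.81), so its bound over input ratio was 13.6% of the median such ratio of coding regions. Its share of all transcript counts was 0.00508% in the bound library and 0.0326% in the input. Within the class without a coding region it took 0.0135% of bound reads and 0.0736% of input reads.

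The second MALAT1 transcript had far fewer counts and the same direction. ENST00000508832 had 15 reads in the bound library against 61 reads in the input, where the median coding-region ratio would give 121 bound reads. It was 8.09-fold lower (interval 4.54 to 15.3). The bound over input ratio of ENST00000534336 was 1.10 times that of ENST00000508832 (exact conditional 95% counting interval 0.614 to 2.08), so no difference between the MALAT1 transcripts was detectable at these counts. The files do not say whether the shorter count is part of the larger, so they are not separate evidence.

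NEAT1 footprints were also lower in the bound library, on very few reads. ENST00000501122 had 12 bound reads against 27 input reads, with 53.7 bound reads at the median coding-region ratio, and was 4.47-fold lower (interval 2.19 to 9.69). ENST00000499732 had 8 bound reads against 16 input reads, with 31.8 at the median coding-region ratio, and was 3.98-fold lower (interval 1.61 to 10.7). The interval of ENST00000499732 reaches under 2-fold, and its counts are repeated by 13 other transcripts, those of ENST00000501122 by 3. The NEAT1 transcripts did not differ detectably from each other, with a ratio of ratios for ENST00000501122 over ENST00000499732 of 0.889 (interval 0.265 to 3.09). Nor was MALAT1 distinguishable from NEAT1: the ratio of ENST00000534336 was 0.607 times that of ENST00000501122 (interval 0.296 to 1.32), and the ratio of ENST00000508832 was 0.492 times that of ENST00000499732 (interval 0.161 to 1.60). Both intervals include equal ratios and a MALAT1 ratio far below that of NEAT1. The interval within NEAT1, like that within MALAT1, takes the counts as separate. Whether transcripts of the same gene share reads was not tested.

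**Figure D1:**
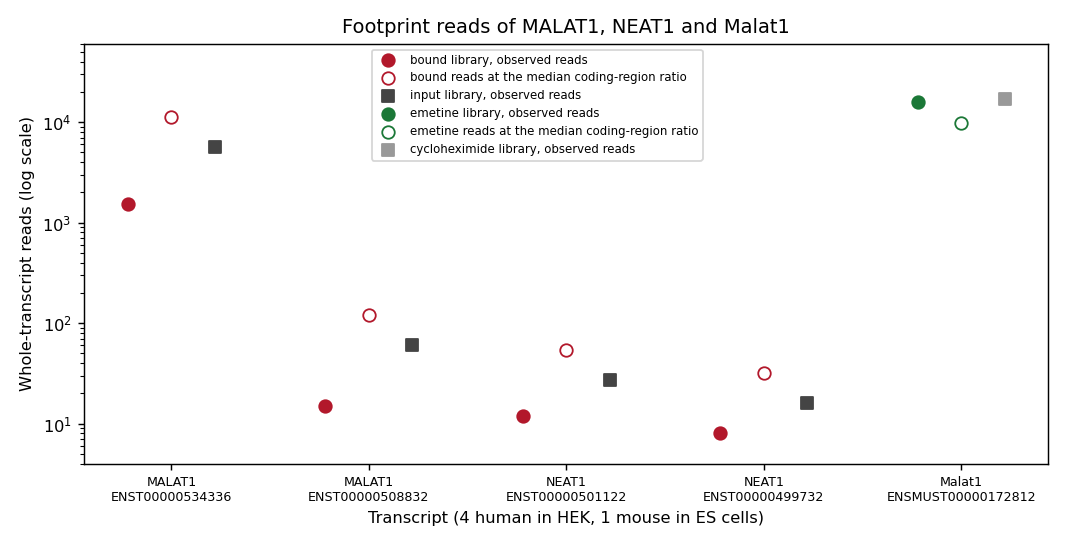
Whole-transcript reads (log scale) of the 5 transcripts, with filled circles for the bound or emetine library, squares for the input or cycloheximide library, and open circles for the bound or emetine reads that the median coding-region ratio would give. The 4 human bound counts (1536, 15, 12 and 8) lie below both of their other marks, while the emetine count of mouse Malat1 (16020) lies above its open circle at 9706.

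**Figure D2:**
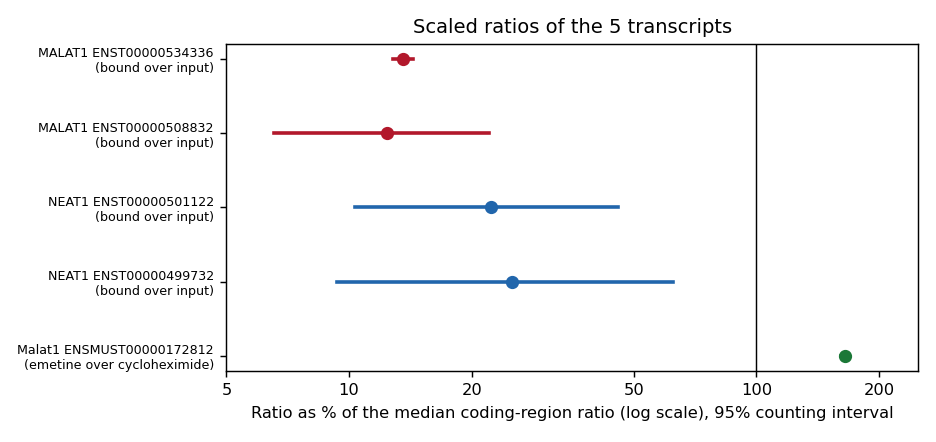
Scaled ratio of each transcript as a percent of the median ratio of coding regions, on a log axis, with 95% exact counting intervals as bars. The HEK ratios lie between 12.4% and 25.1% with all 4 intervals under 100%, and the interval of mouse Malat1 runs from 162% to 169%.

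By their log2 ratios all 4 human transcripts fell short of input by 2-fold or more after capture, and 3 of them by 4-fold or more. The third, NEAT1 ENST00000501122, did not reach 4-fold when scaled to total counts (log2 ratio -1.91) or with a prior of 5 (-1.67), which left the 2 MALAT1 transcripts. The 4 rows are 2 transcripts each of 2 genes and may repeat reads, so they are not 4 separate observations. Among transcripts without a coding region with at least 20 summed reads, a minimum that admits all 4, 6.97% were lower by 2-fold or more (3167 of 45433) and 1.21% by 4-fold or more. For coding regions with at least 20 reads these shares were 3.78% and 0.319%. With at least 100 summed reads, which ENST00000534336 passes and the other 3 human transcripts do not, 2.58% of the class without a coding region was lower by 2-fold or more and 0.855% by 4-fold or more. The matching shares of coding regions were 0.861% and 0.121%.

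ENST00000534336 stood in a sparse tail of well-counted transcripts. Its log2 ratio was -2.88, while 635 other transcripts without a coding region and with summed reads within 2-fold of its 7232 had a median of 0.12 and lay between -0.42 and 0.31 from the 5th to the 95th percentile. It was thus 8.02-fold below that median. Of the 635, 19 (2.99%) had a lower ratio, and these formed 15 different pairs of counts at 2 significant digits. All 23 of the 635 that were lower by 2-fold or more were so by 4-fold or more, so none lay between those folds. Among 954 coding regions with similar reads 2 (0.210%) were lower than this transcript, and among 104 3′ trailers 2 were (1.92%). The next coding region above it had a log2 ratio of -0.42 and the next trailer -0.20. Of 5′ leaders 3 had similar reads, with a median log2 ratio of -1.94. Among all transcripts with at least 1000 summed reads, 63 of 3109 others without a coding region (2.03%) and 8 of 4592 coding regions (0.174%) had ratios as low or lower. Other isoforms of MALAT1 could be among the 19 and the 63, because the identifiers could not be paired with genes. Whether any of them share its reads was not tested.

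**Figure D3:**
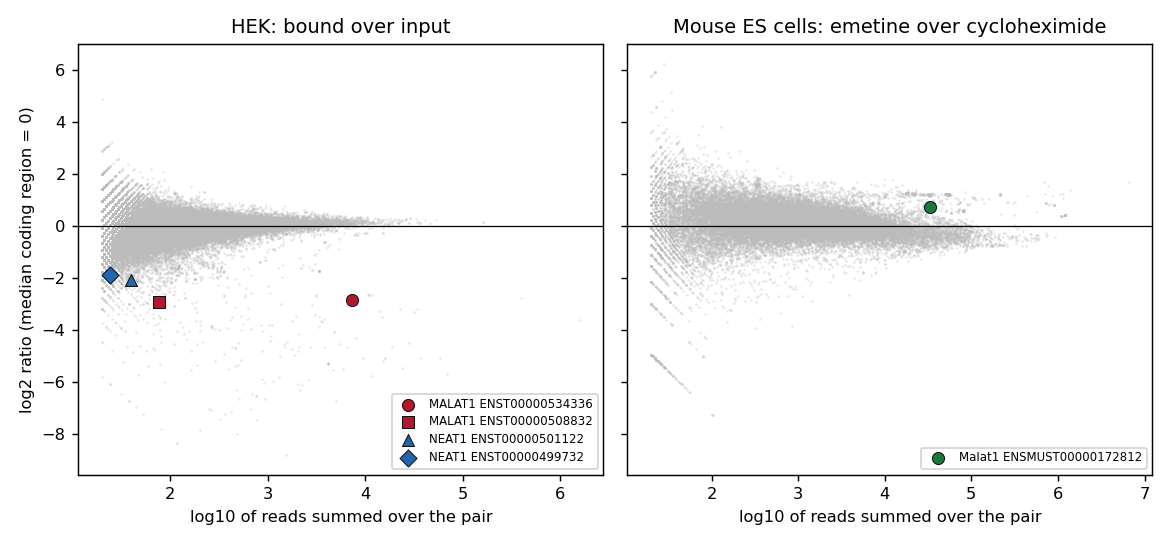
Log2 ratio against the log10 of reads summed over a pair, for transcripts without a coding region with at least 20 summed reads (grey) and the 5 members (coloured); the left panel is bound over input in HEK cells and the right panel emetine over cycloheximide in mouse ES cells. MALAT1 ENST00000534336 at -2.88 lies far under the narrow body of transcripts with as many reads, the other 3 human members lie in the lower part of a much broader cloud that extends below them, and mouse Malat1 lies above the line at 0.72.

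The less-counted human transcripts sat in broader distributions. For ENST00000508832 (log2 ratio -2.96), 60 of 19556 transcripts without a coding region with similar reads (0.307%) were lower, against a median of -0.15. Counting each different pair of counts once made this 1.40%. For ENST00000501122 of NEAT1 (log2 ratio -2.10) 273 of 19858 (1.37%) were lower, against a median of -0.22, and with each pair of counts once 10.4% were. For ENST00000499732 of NEAT1 (log2 ratio -1.90) 619 of 19147 (3.23%) were lower, against a median of -0.28, and with each pair once 21.4% were. With few reads, taking each pair once leaves mostly a grid of possible pairs. At these read numbers 12.3% and 17.3% of the transcripts set beside the NEAT1 transcripts were at least 2-fold lower, so the low NEAT1 ratios are less certain than that of MALAT1. Among 3′ trailers with similar reads, 3.29% lay below ENST00000501122 and 9.44% below ENST00000499732.

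The transcript whose ratio was nearest to that of ENST00000534336 among those of similar reads was ENST00000544868, over 2 libraries. It had 1447 reads in the bound library and 5409 in the input, 94.2% and 95% of the reads of ENST00000534336, and its log2 ratio was -2.89, a difference of 0.011. It is 1 of the 19 lower transcripts. The tables used here do not say which gene it belongs to, so whether it shares reads with MALAT1 was not tested.

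In mouse ES cells Malat1 footprints were higher with emetine than with cycloheximide relative to coding regions. ENSMUST00000172812 had 16020 reads with emetine against 17055 reads with cycloheximide, where the median coding-region ratio would give 9706 emetine reads. The unscaled counts are thus slightly lower with emetine, and the scaled ratio was 1.65-fold higher (interval 1.62 to 1.69), below a 2-fold difference. Its share of all transcript counts was 0.00849% with emetine and 0.00498% with cycloheximide. These bulk libraries count footprints, and nothing says that they came from the same culture. Differences in the share of cells holding an RNA, in RNA per cell and in footprints per RNA cannot be told apart. Among transcripts without a coding region with at least 100 summed reads, 17.1% were at least 1.5-fold higher with emetine and 5.81% at least 2-fold higher; for coding regions these shares were 8.16% and 1.46%.

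Malat1 lay above most transcripts with similar reads, and a smaller share of coding regions than of its own class was as high. Its log2 ratio was 0.72, while 1810 transcripts without a coding region and with reads within 2-fold of its 33075 had a median of -0.25 (5th to 95th percentile -0.82 to 1.21). It was 1.97-fold above that median. Of the 1810, 262 (14.5%) were as high or higher, forming 85 of 815 different pairs of counts at 2 significant digits. Most of these lay above 2-fold: 235 of the 1810 (13.0%) were at least 2-fold higher. Among 2237 coding regions with similar reads 4 (0.179%) were as high. Their median was -0.22, so Malat1 was 1.93-fold above it. Of 100 trailers with similar reads 2 were as high, and their median was -0.27.

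By their median, 5′ leaders came closest to Malat1 of the parts compared. The 25 leaders with similar reads had a median log2 ratio of 0.45, so Malat1 was 1.21-fold above it. The leaders were spread widely around that median, with quartiles of -0.12 and 0.50, so it does not describe all of them. Of the 25, 3 (12%) were as high or higher, against 14.5% of transcripts without a coding region. Isoforms share leaders, and the 25 formed 21 different pairs of counts at 2 significant digits. Over all transcripts with at least 1000 summed reads, 1116 of 15953 others without a coding region (7.0%) and 276 of 19112 coding regions (1.44%) were at least as high as Malat1.

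**Figure D4:**
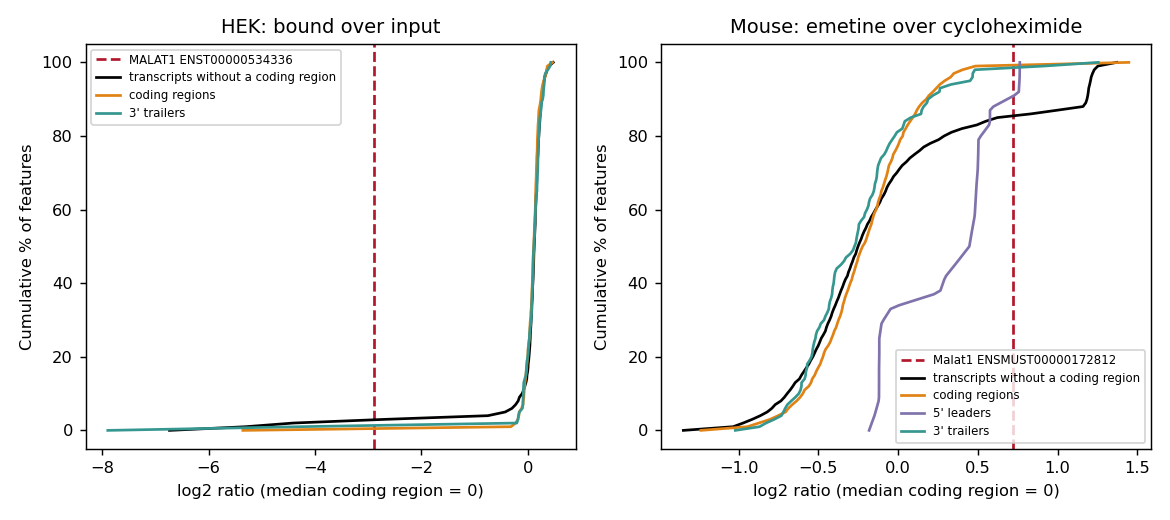
Cumulative percent of features by log2 ratio, for features with summed reads within 2-fold of MALAT1 ENST00000534336 (left, bound over input) or mouse Malat1 (right, emetine over cycloheximide), with the member as a dashed line. The curves at left are nearly vertical around 0.1 with thin tails that reach past MALAT1 at -2.88; at right the class without a coding region has a step beyond 1.1 above Malat1 at 0.72, and the 25 leaders lie to the right of coding regions and trailers (leaders are not drawn at left, where 3 had similar reads).

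The mouse transcript nearest to Malat1 in ratio was ENSMUST00000157129. It had 8060 reads with emetine and 8514 with cycloheximide, a log2 ratio of 0.73 that differed from that of Malat1 by 0.011 over 2 libraries. Its counts were 50.3% and 49.9% of those of Malat1, and the tables used here give it no gene name. The HEK and mouse pairs address different questions, capture and drug, in different species, so their ratios were not compared.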

How the data were processed

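The deposited values are raw read counts, made by the authors for transcripts and their parts with 1 file per library; per the file headers the columns are whole transcript, coding region and untranslated parts. The submitters' processing notes list CASAVA 1.8, Bowtie2 2.0.6, TopHat2 2.0.7, mm10 and hg19 but not their roles. Not given in the sources used here are how reads were assigned to transcripts and from which annotation. Reads with several matches could move counts between isoforms and copies. Per the labels' protocols, libraries were amplified by PCR and no molecular identifiers are named, so intervals cover counting error only. Nothing says whether the libraries of a pair share a culture.

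From the counts, ratios of bound over input and emetine over cycloheximide were computed (Python 3.11.15, scipy 1.17.1), with scaling, prior and minimums as given in the report. Each member was set beside features with summed reads within 2-fold, members left out. Alternatives were total counts, TMM scaling of edgeR 4.0.16, other minimums, priors and windows. The scripts were tested on simulated counts that had counting error only, with large changes planted in transcripts of at least 100 summed reads. Changes as small as that of Malat1, fewer reads and reads shared between isoforms were not simulated. The members and comparisons were chosen with earlier results of these data known. Beside the members, the transcript nearest in ratio per pair was named. Planned lists of speckle and paraspeckle proteins, other noncoding RNAs and markers were not run, because the name tables at hand list 0 of these transcript identifiers.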

Additional observations from a re-analysis of the deposited data

How the results depend on the processing

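No paired analysis was possible because the libraries number 1 per group. The direction of all 5 transcripts was kept under the scalings, priors and minimums tried, but NEAT1 ENST00000501122 fell under 4-fold when scaled to total counts (-1.91) and with a prior of 5 (-1.67). Of 81 values under alternatives, 52 stayed within the counting or rank interval of the value in the report, or within 1.5 times its count, and 29 left it; beyond the change of setting itself, the cause was not tested. Scaled to total counts, the log2 ratio of MALAT1 ENST00000534336 was -2.68 and that of mouse Malat1 0.77; scaled to whole coding transcripts Malat1 was 0.67. The median of transcripts with similar reads, taken within 4-fold, was 0.11 for ENST00000534336, -0.14 for ENST00000508832, -0.19 for ENST00000501122, -0.23 for ENST00000499732 and -0.22 for Malat1; in the narrower window tried it was -0.28 for Malat1. With identical counts taken once it was -0.27 for ENST00000508832, -0.50 for ENST00000501122 and -0.67 for ENST00000499732. The share below a member, with identical counts once, was 1.40% for ENST00000508832, 10.4% for ENST00000501122 and 21.4% for ENST00000499732; at few reads this leaves mostly a grid of possible pairs. In the narrower window it was 1.10% for ENST00000501122 and 2.98% for ENST00000499732, and within 4-fold 1.87%, 4.04% and, for Malat1, 90.7%. The share of transcripts without a coding region at least 2-fold lower in HEK (2.58%) was 7.02% at 1.5-fold, 0.855% at 4-fold, 5.51% with 30 reads, 2.07% with 500 reads and 6.97% with 20 reads, a minimum added after seeing the data. The share at least 2-fold higher with emetine (5.81%) was 17.1% at 1.5-fold, 0.0963% at 4-fold, 3.82% with 500 reads and 8.18% with 20 reads. For both shares the number of transcripts past the fold was compared, not the percent, and that number changes with the minimum itself. In HEK it was 577 of 22331 with 100 reads and 131 of 6329 with 500 reads. Setting members beside coding regions, leaders and trailers was also added after seeing the data. NEAT1 had the fewest reads, 24 and 39 summed. Its transcripts were not separated from each other or from MALAT1, and whether depth was the reason was not tested.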
